A study of Caenorhabditis elegans with 39 samples.

Results

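The comparison described here is that of starved first-stage (L1) larvae of the nematode Caenorhabditis elegans whose ancestors had spent a short time in the dauer state with starved larvae of control ancestry. It took every starved library of these ancestries, 21 of the 39 libraries of the series: 9 of short-term dauer and 12 of control ancestry. All came from the wild-type laboratory strain N2, with no transgene or mutation named in the labels. Embryos of well-fed worms had been cultured in liquid, either as controls or so as to form dauers, and after recovery the lines were kept fed on plates. F3 embryos were then set up in liquid culture without food and collected after 24 h as arrested L1 larvae, so starvation, strain and stage were shared by both groups and the ancestors' culture was what differed. Batch 1 held 5 libraries of each ancestry, and batch 2 held 7 control and 4 short-term dauer libraries. A library is RNA of a whole larval culture, and nothing in the labels says whether libraries of a group descend from separately treated ancestors. The p-values therefore measure the spread between these libraries, and fewer cells of a type cannot be told apart from less RNA per cell.

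The dauer is a long-lived, non-feeding larval form that worms enter in place of the third larval stage when food is short or crowding is high. Entry is set by insulin-like peptides acting through the receptor DAF-2, by the TGF-beta ligand DAF-7 and by the steroid dafachronic acid acting on the nuclear receptor DAF-12. Newly hatched larvae without food arrest by an overlapping route, in which low insulin signalling lets the FoxO factor DAF-16 enter nuclei, fat is oxidised, and moulting and germ-cell division wait. Small RNAs and histone methylation can carry expression states across generations in this worm, and the question put to these samples was whether an ancestral dauer left a mark in the F3.

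Gene counts per library were 20950821 to 30313127 in batch 1 and 9351453 to 13740490 in batch 2. A set of 4 libraries stood apart from the others before ancestry was considered. In control LC6, control 14 and short-term dauer 14 the transcripts of fat oxidation and the glyoxylate cycle that the other starved larvae carried were at low levels. In short-term dauer LC14, 12.62% of reads lay outside genes, against 3.23% to 4.74% in the other 20 libraries, and 33444 features had at least 1 count, against 20698 to 28367. List counts and the values that turn on these 4 are given with and without them, and they are called the atypical libraries.

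No gene passed the test between ancestries. In edgeR's quasi-likelihood test with batch as a term, 0 of 15187 genes (0.0% of those tested) had an adjusted p-value under 0.05, while 176 (1.16%) reached an unadjusted 0.05, 133 higher (0.876%) and 43 lower (0.283%) in larvae of short-term dauer ancestry. That split turned with short-term dauer LC14 left out (37 higher and 99 lower), and with library weights (182 and 299). DESeq2 also called 0 genes after adjustment and put 203 under 0.05 before it. Without the 4 atypical libraries 0 of 15197 genes passed (0.0%), with 348 under an unadjusted 0.05 (2.29%), 107 higher and 241 lower. Batch 1 alone gave 0 of 17251 genes (0.0%), with 280 before adjustment (1.62%), and batch 2 alone 0 of 14936 (0.0%), with 96 before adjustment (0.643%). A test of whether the ancestry difference itself differed between batches also called 0 of 15187 genes (0.0%), with 185 before adjustment (1.22%). If no gene differed and the p-values were evenly spread, about 1 in 20 would reach an unadjusted 0.05 by chance. The shares of these fits, 0.643% to 2.29%, were all below that. Shares so far below 1 in 20 show that the p-values of these fits were not evenly spread. The 1 in 20 is therefore no fair yardstick, and the unadjusted counts cannot show whether there was an excess over chance. Other fits lay outside this range, with 3.17% under library weights and 5.86% with no filter on low counts.

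The precision of the comparison can be read from the 95% intervals of the log2 fold changes. Of 15185 genes with an interval, 13805 (90.9%) had it wholly between -1 and 1, and 10536 (69.4%) between -0.5 and 0.5. Among the 8195 genes with a mean of at least 10 counts scaled to library size (CPM, the count in each 1000000 reads of genes), 8124 (99.1%) lay within 1 and 7650 (93.3%) within 0.5. A change of 2-fold or more in either direction thus lay outside the interval for nearly all moderately expressed genes, while smaller differences, and differences of scarce transcripts, were not resolved. The median standard error was 0.116 on the log2 scale over all genes and 0.0849 over those of at least 10 CPM. With the 4 atypical libraries left out it was 0.0984 and 0.0712.

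The batches, which share no library, gave different rankings of the genes. Over the 14835 genes tested in each batch and in the joint fit, the log2 fold changes of batch 1 and batch 2 had a Pearson correlation of -0.0321 and a Spearman correlation of -0.044, as a description across genes, and 48.4% of genes had the same sign. In batch 1, 835 genes had an absolute log2 fold change over 1, and in batch 2, 18 genes. The filter on low counts let 17251 genes into the batch 1 fit and 14936 into that of batch 2. Short-term dauer LC14 and control LC6 of batch 1 had 2934 and 1881 genes more than 1 from their batch on the log2 scale. Control 14 and short-term dauer 14 of batch 2 had 1522 and 1339. The part of the filter and of single libraries in the 835 was not tested. Of the 14835 genes, srd-18 (F53F1.10) and catp-4 alone went past 1 in both batches. The log2 fold change of srd-18 was 1.09 and 1.13, whereas catp-4, of the family of cation-pumping ATPases, had 1.12 in batch 1 and -1.07 in batch 2.

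**Figure D1:**
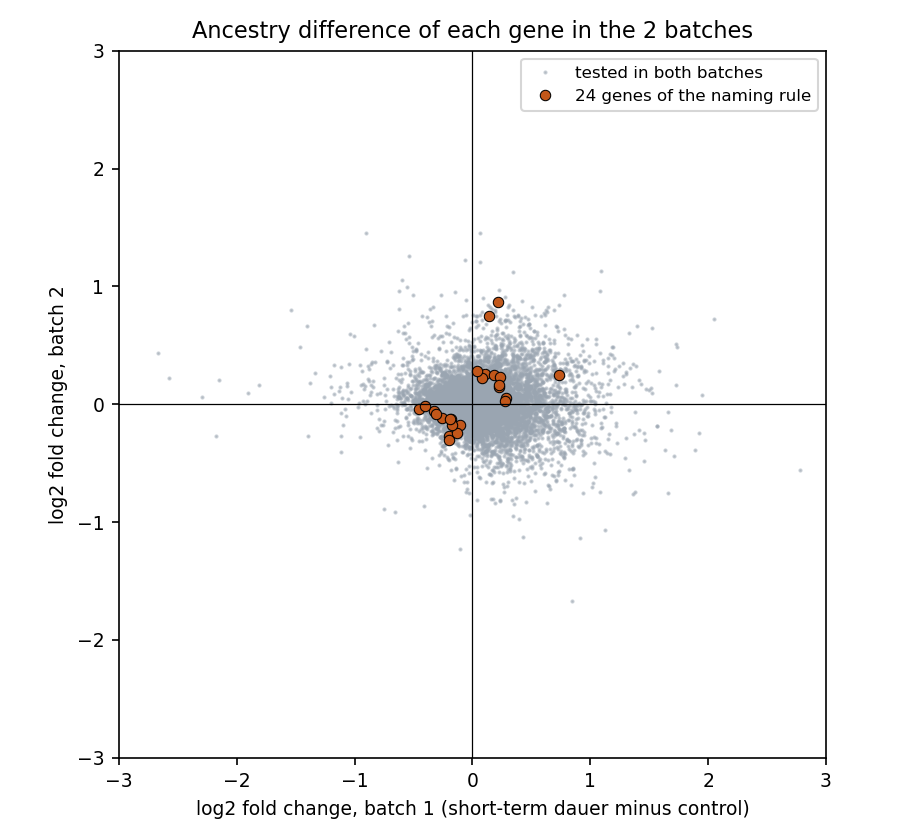
Each grey point is 1 gene, at its log2 fold change (short-term dauer minus control ancestry) in batch 1 on the horizontal axis and in batch 2 on the vertical axis; the orange points are the 24 genes chosen by the naming rule, which asks for the same sign in both batches. The 14835 grey points show no slope (Pearson -0.0321) and reach further along the batch 1 axis.

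In each batch the values of single genes were also compared directly. In batch 1, 58 genes (0.382% of 15187) had groups that did not overlap, 12 with every short-term dauer library above every control and 46 below. In batch 2 there were 13 such genes (0.0856%), 5 above and 8 below. No gene had separate groups in the same direction in both batches, 0 of 15187 (0.0%).

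Of the 176 genes under an unadjusted 0.05, 160 kept their direction within batch 1, within batch 2 and without the 4 atypical libraries, 117 higher and 43 lower. With short-term dauer LC14 left out of the joint fit, 34 higher and 83 lower did so. Most of those higher were scarce: once the ancestry with more RNA had to average 10 CPM or more, 10 genes higher and 31 lower were left. The fits compared for direction share their libraries with the joint fit. Genes picked for a low joint p therefore agree largely by construction, and the agreement is no replication. None of the differences described next passed the adjusted test (adjusted p = 1.0 in edgeR for each), and the genes are given as the nearest to it.

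Among the genes higher in short-term dauer descendants, lys-7 (C02A12.4) came first. It encodes a lysozyme of the intestine, is activated by DAF-16 and takes part in defence against bacteria. In batch 1 its level was 16.7, 13.9, 13.9, 15.6 and 10.6 CPM in the control libraries LC10, LC11, LC12, LC14 and LC6, and 13.8, 16.46, 14.4, 11.9 and 17.9 CPM in the short-term dauer libraries LC11, LC12, LC13, LC14 and LC6. The groups overlapped throughout. In batch 2 the 7 control libraries ran from 15.7 through a median of 17.8 to 24.6 CPM, and the short-term dauer libraries 16, 10, 13 and 14 had 19.8, 26.5, 29.1 and 47.5 CPM. Of these, 3 lay above all controls, and the highest library of each ancestry was the one numbered 14, which lacked the fasting transcripts. The joint log2 fold change was 0.46 (SE 0.14, 95% interval 0.17 to 0.74, unadjusted p = 0.00297), made up of 0.14 in batch 1 and 0.75 in batch 2. Without the 4 atypical libraries it was 0.28 (SE 0.0946, unadjusted p = 0.00726). For scale, the fed control larvae of batch 1, collected at 18 h rather than 24 h, had 43.2 ± 6.62 CPM of lys-7 (SD, n = 4). Fed and starved larvae thus differed in time as well as in food, here and where fed larvae are given below.

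The gene with the lowest unadjusted p overall was srd-18, a chemoreceptor gene of the worm's large serpentine receptor families, which falls outside the naming rule by its low level and was chosen after its values were seen. In batch 1 its level was 0.662, 0.675, 0.588, 0.807 and 0.56 CPM in control LC10, LC11, LC12, LC14 and LC6, against 1.39, 0.711, 0.868, 2.54 and 0.762 CPM in short-term dauer LC11, LC12, LC13, LC14 and LC6. In batch 2 controls had 0.136 to 0.709 CPM with a median of 0.446, and short-term dauer 10, 13, 14 and 16 had 0.984, 0.533, 1.21 and 0.921 CPM. In batch 2, 3 of 4 libraries were above all controls, and in batch 1 the groups overlapped. Its log2 fold change was 1.14 (SE 0.32, unadjusted p = 0.00156), and 0.70 (unadjusted p = 0.0166) without the 4 atypical libraries.

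The other genes higher by the naming rule had log2 fold changes of 0.16 to 0.55. The uncharacterised gene M162.5 (0.51, unadjusted p = 0.0247) rested largely on 1 library: short-term dauer LC6 had 33.1 CPM, the other 4 of its group 8.05 to 10.4 CPM, and the batch 1 controls 7.59 to 10.7 CPM. The Piwi Argonaute prg-1 (D2030.6), which binds the piRNAs that start heritable silencing, had 24.1, 24.3, 25.7, 18.1 and 21.2 CPM in short-term dauer LC11, LC12, LC13, LC14 and LC6 of batch 1, against 18.2 to 21.03 CPM in the controls. In batch 2, prg-1 had 17.2 to 25.8 CPM against 15.6 to 23.9 CPM, and the groups overlapped in both batches. Its log2 fold change was 0.19 (SE 0.0849, unadjusted p = 0.0383), 0.29 in batch 1 and 0.053 in batch 2. The importin alpha ima-2 (0.17) and lin-56 (ZK673.3, 0.20), a nuclear protein of the synMuv A class, which keeps vulval signalling in check, had unadjusted p-values of 0.0387 and 0.0149. The mitotic kinesin bmk-1 (0.20), the glycogenin gyg-2 (0.23), which primes glycogen synthesis, the vesicular nucleotide transporter vnut-1 (0.16) and the patched-related ptr-14 (0.25) had unadjusted p-values of 0.0234 to 0.0335. B0034.1 had a log2 fold change of 0.20 (unadjusted p = 0.0154). The F-box gene fbxa-105 (0.17) and C29F3.7 (0.55) completed the 12 with unadjusted p-values of 0.0532 and 0.052.

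Of the 12 genes lower in short-term dauer descendants, C25D7.10 had the lowest unadjusted p. In batch 1 it stood at 13.3, 14.8, 12.2, 12.5 and 13.2 CPM in control LC10, LC11, LC12, LC14 and LC6, and at 11.1, 12.7, 11.8, 7.51 and 11.98 CPM in short-term dauer LC11, LC12, LC13, LC14 and LC6. In batch 2 the controls had 12.5 to 16.6 CPM and short-term dauer 10, 13, 14 and 16 had 13.6, 12.4, 8.73 and 12.97 CPM. The groups overlapped in each batch, and the lowest value of each was an atypical short-term dauer library. Its log2 fold change was -0.22 (SE 0.0718, unadjusted p = 0.00495), -0.20 in batch 1, -0.27 in batch 2 and -0.14 without the 4 atypical libraries.

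The p38 kinase pmk-1 (B0218.3), the core of the worm's antibacterial signalling in the intestine, was among the lower genes. In batch 1 it had 37.8, 37.9, 39.9, 34.6 and 50.2 CPM in control LC10, LC11, LC12, LC14 and LC6, and 31.6, 34.6, 35.5, 22.02 and 36.98 CPM in short-term dauer LC11, LC12, LC13, LC14 and LC6. In batch 2 controls had 41.8 to 61.6 CPM with a median of 46.2, and short-term dauer 10, 13, 14 and 16 had 39.3, 43.98, 47.1 and 42.2 CPM. The groups overlapped in both batches. Its log2 fold change was -0.18 (SE 0.0701, unadjusted p = 0.0191), and -0.11 (unadjusted p = 0.0305) without the 4 atypical libraries.

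EEED8.2, srsy-2 and gst-39 had batch 1 groups that did not overlap. EEED8.2 had 11.6 to 14.8 CPM in control and 7.27 to 10.3 CPM in short-term dauer libraries of batch 1, a log2 fold change of -0.45 there, but 9.91 to 17.5 and 10.7 to 15.7 CPM in batch 2, where the log2 fold change was -0.038. The glutathione S-transferase gst-39 likewise had -0.41 in batch 1 and -0.012 in batch 2, and srsy-2 -0.33 and -0.057. Also lower were mff-1 (-0.24), whose product recruits the mitochondrial fission machinery, prx-6 (-0.17), an ATPase of peroxisome assembly, and rnst-2 (-0.14), a lysosomal ribonuclease. The SLO-1 channel interactor islo-1 had -0.14, and mec-15, an F-box protein of touch neurons, -0.13. The glycosyltransferase bre-2 (-0.16), which makes the glycolipids that bind Bacillus thuringiensis toxin, and C13F10.5 (-0.18) had unadjusted p-values of 0.0266 and 0.0303. Without the 4 atypical libraries, 5 of the 12 higher and 5 of the 12 lower genes stayed under an unadjusted 0.05, and 9 of 12 in each direction had smaller differences.

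**Figure D2:**
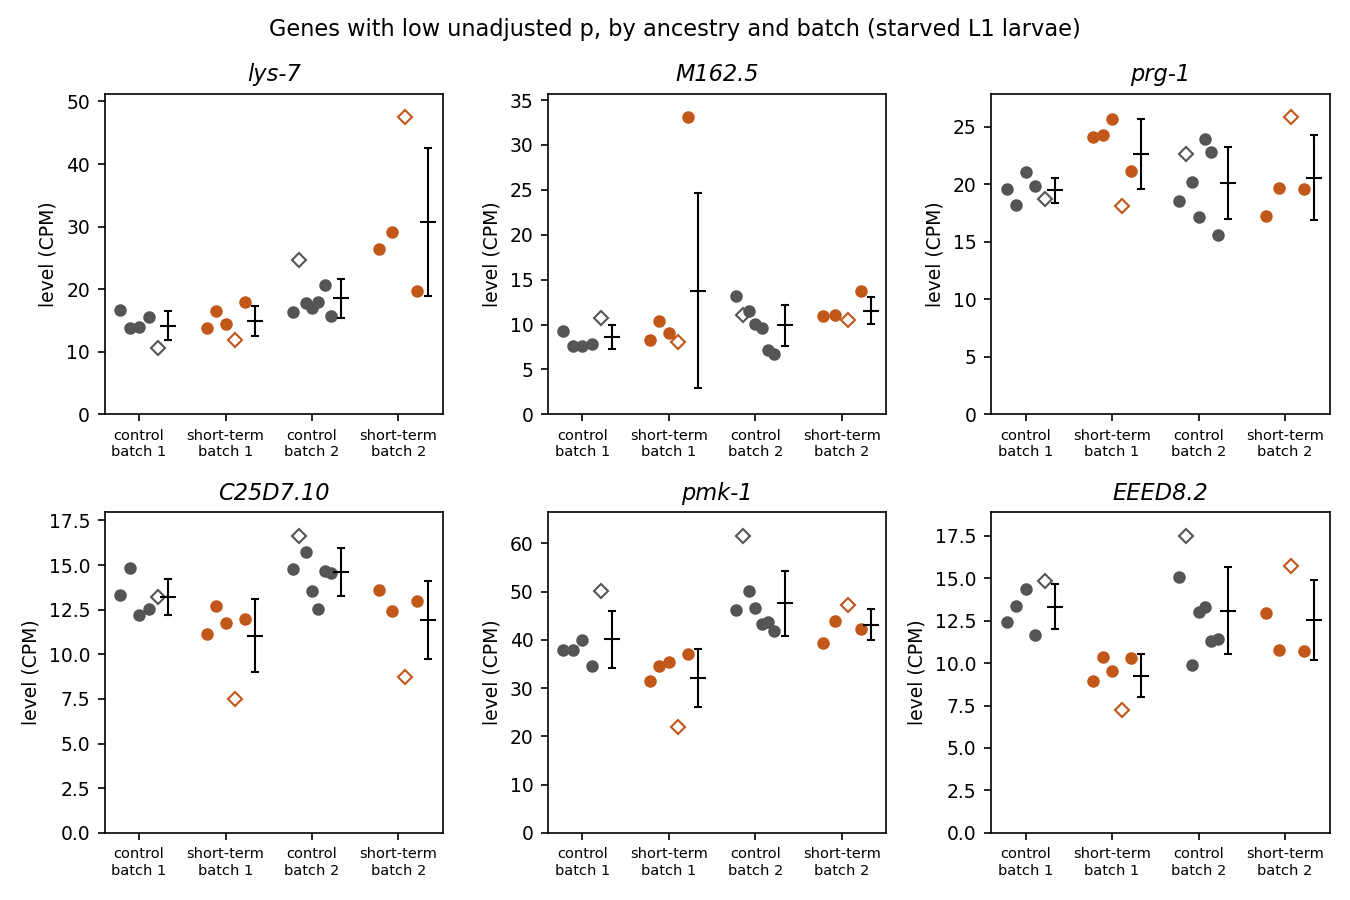
Level in CPM (vertical axis) of 6 genes in each starved library, by ancestry and batch; grey is control, orange is short-term dauer ancestry, open diamonds are the 4 atypical libraries, and the bars give mean and SD of each group within its batch (n = 5, 5, 7 and 4 from left to right). The batch 2 short-term dauer values of lys-7 reach 47.5 CPM, the M162.5 value of 1 library is 33.1 CPM, and EEED8.2 separates the groups in batch 1 but not in batch 2.

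The pathways that set dauer entry and L1 arrest were described by lists of genes, each beside all 15187 genes, of which 51.4% were higher, with a median of 0.0032 on the log2 scale. The majority of higher or lower genes turned in several lists without the 4 atypical libraries, and both counts are given. Of 19 tested insulin pathway genes, 4 were higher and 15 lower, with a median of -0.035 and none under an unadjusted 0.05. Of the same genes 12 were higher and 7 lower without the 4 atypical libraries. The insulin receptor daf-2 had a log2 fold change of -0.13 (95% interval -0.46 to 0.20) and daf-16 of -0.073 (95% interval -0.26 to 0.12). In single libraries daf-2 ran from 125 CPM in short-term dauer LC14 to 648 CPM in control LC6, and between 234 and 452 CPM in all others except control 14, at 571 CPM. The zinc-finger factor pqm-1, which acts in opposition to DAF-16, and the receptor substrate ist-1 were the members with the lowest unadjusted p in each direction, at 0.075 and -0.13.

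Of 40 insulin-like peptide genes, 24 passed the filter on low counts, 7 higher and 17 lower, with a median of -0.051 (6 and 18 without the 4). One, ins-25, was under an unadjusted 0.05 (-0.41, p = 0.0453), with 1.91 to 3.01 CPM in control and 0.9998 to 1.77 CPM in short-term dauer libraries of batch 1, groups that did not overlap, and overlapping values in batch 2. The most positive by p was ins-11 (0.39, unadjusted p = 0.225). The dauer-linked peptide daf-28 had a log2 fold change of -0.040 and a range of 11.7 to 24.96 CPM over the 21 libraries. In the dauer TGF-beta and dafachronic acid list of 18 genes, 6 were higher and 12 lower, none under an unadjusted 0.05, against 11 and 7 without the 4 atypical libraries. There daf-7 had -0.034 (95% interval -0.20 to 0.13), daf-12 -0.014 (-0.21 to 0.18), the sterol oxygenase daf-36 0.29 and the STAT factor sta-1 -0.068.

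Of 28 DAF-16 targets and stress genes 8 were higher and 20 lower, with a median of -0.066. Without the 4 they were 13 and 15, with a median of -0.018. Only lys-7 was under an unadjusted 0.05. The small heat-shock genes hsp-12.6 (log2 fold change -1.11, unadjusted p = 0.218) and hsp-12.3 (-0.60) and the superoxide dismutase sod-3 (-0.45) had the most negative values of those named, and each followed 3 libraries. For hsp-12.6 these were control LC6, control 14 and short-term dauer 14 at 54.3, 33.4 and 24.4 CPM, with 1.03 to 4.01 CPM in the other 18. Without the 4 atypical libraries hsp-12.6 was at -0.15, sod-3 at 0.036 and hsp-12.3 at -0.033. The heat-shock gene hsp-16.2, of near-identical copies that can share reads, had -0.15 (95% interval -1.06 to 0.75) at 0.884 and 0.707 CPM on average in control and short-term dauer ancestry.

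Energy sensing had 2 of 16 genes higher, 14 lower and none under an unadjusted 0.05, and 11 higher and 5 lower without the 4 atypical libraries. The AMP-activated kinase subunit aak-2 was at -0.087 and the regulatory subunit aakg-2 at 0.069. In the fasting and fat use list 22 of 38 tested genes were higher and 16 lower, none under an unadjusted 0.05, with a median of 0.024 (26 and 12 without the 4). The lysosomal lipases lipl-1 (0.15), lipl-2 (-0.75) and lipl-3 (-0.056) did not pass. Of 26 genes of the glyoxylate cycle, gluconeogenesis and trehalose, 12 were higher and 14 lower, none under an unadjusted 0.05, and 21 were higher and 5 lower without the 4 atypical libraries (median 0.063). The trehalases tre-2 and tre-3 were at 0.16 and -0.10.

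Intervals were wide for several of these genes, and 3 libraries carried the metabolic transcripts at a small share of the usual level. The starvation-induced gene T22F3.11 stood at 6.59, 4.42 and 5.85 CPM in control LC6, control 14 and short-term dauer 14, and at 600 to 1668 CPM in the other 18 libraries. The fed control larvae of batch 1, collected at 18 h, had 6.80 ± 2.59 CPM of T22F3.11 (SD, n = 4). The acyl-CoA synthetase acs-2, which feeds fatty acids into mitochondrial oxidation, had 5.51, 3.08 and 6.41 CPM in those 3 and 464 to 1714 CPM in the rest. The glyoxylate enzyme icl-1 had 223, 147 and 164 CPM against 1399 to 3872 CPM. The fed control larvae stood above those 3 libraries for both, at 20.9 ± 1.02 CPM of acs-2 and 509 ± 53.9 CPM of icl-1 (SD, n = 4). There were 2 control libraries and 1 short-term dauer library in this state, so both ancestries contained it. Control 14 and short-term dauer 14 carry the same number, however, and may not be independent occurrences, which was not tested. The log2 fold changes between ancestries were -0.023 for T22F3.11 (95% interval -1.57 to 1.52), 0.15 for acs-2 (-1.47 to 1.76) and 0.12 for icl-1 (-0.94 to 1.17). Without the 4 atypical libraries the values were -0.053, 0.12 and 0.13, with standard errors of 0.15, 0.23 and 0.0875.

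Transcripts that were abundant in the same 3 libraries included the glutathione S-transferase gst-20, the lipase lipl-2 and the saposin-like spp-8, of which gst-20 and spp-8 were chosen after their values were seen. The level of gst-20 was 927, 672 and 403 CPM there, 269 CPM in control 13, and 34.5 to 68.5 CPM in the other 17. The fed control larvae had 90.3 ± 16.42 CPM of gst-20, 5.70 ± 1.47 CPM of lipl-2 and 0.750 ± 1.21 CPM of hsp-12.6 (SD, n = 4), below the 3 libraries for each. Batch 1 had such a library in control ancestry alone, and there the log2 fold change of gst-20 was -2.18 (unadjusted p = 0.0284), against -0.27 in batch 2.

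**Figure D3:**
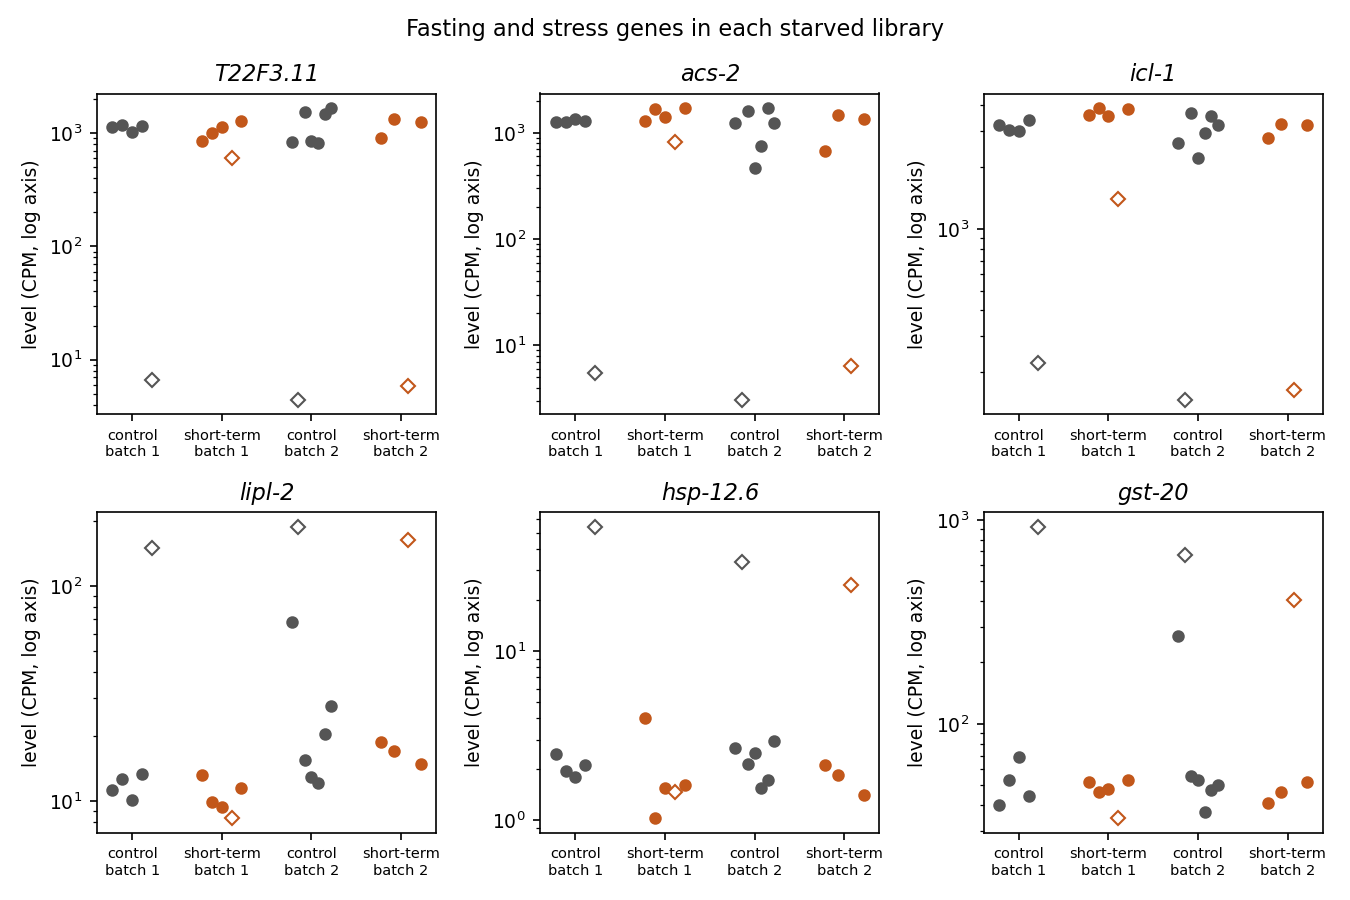
Level in CPM (logarithmic vertical axis) of 6 fasting and stress genes in each starved library, by ancestry and batch, with open diamonds for the 4 atypical libraries. In the top row 3 diamonds lie far below all other libraries (T22F3.11 at 4.42 to 6.59 CPM against 600 to 1668 CPM), and in the bottom row the same 3 lie above them, with control 13 also raised for lipl-2 and gst-20.

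The machinery of inheritance showed no member past the adjusted test. Of 45 small-RNA genes 28 were higher and 17 lower, with a median of 0.021, and only prg-1 was under an unadjusted 0.05. Without the 4 atypical libraries 21 were higher and 24 lower (median -0.0067). The nuclear Argonaute hrde-1, needed for inheritance of silencing over generations, was at 0.19 (95% interval -0.21 to 0.60), and at -0.12 without the 4 atypical libraries. The polymerase cofactor ekl-1 was at -0.093. Of 32 histone methylation genes 10 were higher and 22 lower, none under an unadjusted 0.05, and 19 higher and 13 lower without the 4. The H3K4 methyltransferase set-2 was at -0.042 (-0.21 to 0.13), the H3K9 methyltransferase set-25 at 0.042 (-0.18 to 0.27), the H3K36 methyltransferase mes-4 at 0.14 (unadjusted p = 0.104) and the demethylase jmjd-2 at -0.15 (unadjusted p = 0.0512).

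Genes of adult gonad and yolk had the highest median of the lists with at least 8 tested genes, 0.27, with 23 of 24 tested genes higher. Of these, 2 were under an unadjusted 0.05, among them gld-1, a repressor of translation in the germ line (0.35, unadjusted p = 0.0456). The values moved with 1 library. Without short-term dauer LC14 the median was 0.038, with 15 of 24 higher, and without all 4 atypical libraries it was -0.0059, with 10 higher and 14 lower. In batch 2 it was -0.0077. The yolk protein gene vit-6 had 14.1 CPM in short-term dauer LC14 and 0.738 to 2.88 CPM in the other 20 libraries, and its log2 fold change of 0.93 became -0.13 without the 4. Sperm genes, for which an L1 larva has no cells, summed to 28.1 CPM in that library with 4 of 39 genes at 0, against 3.26 to 8.09 CPM in the rest. Only 2 of them passed the filter, gsp-4 (0.87, unadjusted p = 0.0472) among them, a sperm phosphatase with a near-identical copy. The collagen lon-3 (0.95, unadjusted p = 0.0412), the dauer cuticlin cut-6 (0.57) and the detoxification gene cyp-35B3 (1.14, unadjusted p = 0.058) also had their highest values in it, 3.73, 7.19 and 4.05 CPM. This library was the one with 12.62% of reads outside genes, and the part of those reads in the values was not tested.

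Markers of the larval tissues showed the reverse in that library. Summed levels of 11 body wall muscle genes were 5358 CPM in short-term dauer LC14 and 10580 to 23800 CPM in the others, with the upper end in control LC6. All 10 tested muscle genes were lower in short-term dauer ancestry (median -0.071), and all 10 were higher without the 4 atypical libraries (median 0.042). Intestine (3 of 10 higher, 9 of 10 without the 4), pharynx (2 of 8, then 6 of 8) and neurons (3 of 17, then 13 of 17) turned in the same way, while hypodermis had 5 of 9 and 6 of 9 higher. None of the tested genes of these tissues was under an unadjusted 0.05. In each direction the members with the lowest unadjusted p had log2 fold changes of 0.16 and -0.17 for intestinal act-5 and asp-1, -0.17 for muscle myo-3, 0.036 and -0.043 for pharyngeal tnt-4 and pha-4, 0.037 and -0.082 for neuronal cat-1 and flp-1, and 0.16 and -0.094 for hypodermal nhr-23 and grh-1. In no library was more than 1 gene of a tissue list at 0, so the labelled whole larvae carried the defining transcripts of each tissue.

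Primordial germ cell genes had 12 of 14 higher and a median of 0.19, which was 0.075 without short-term dauer LC14 and 0.026 without the 4 atypical libraries. The P-granule helicase glh-2 was at 0.23 (unadjusted p = 0.0866) and vbh-1 at -0.067. Early embryo genes had 8 of 12 higher, 6 without short-term dauer LC14 and 3 without the 4 atypical libraries (median 0.080, then -0.11). None was under an unadjusted 0.05, with cyclins cyb-2.1 at 0.35 and cyb-3 at -0.19. The caveolin cav-1 was the 1 lower gene of the gonad list (-0.29, unadjusted p = 0.112).

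Moulting and cuticle genes, whose levels cycle with each larval stage and are low in arrest, had 26 of 44 higher and 18 lower (median 0.055), with lon-3 alone under an unadjusted 0.05. Leaving out the 4 atypical libraries, 15 were higher and 29 lower (median -0.11). The protease nas-6 was at -0.50 and the collagen dpy-7 at 0.16, with an interval of -0.87 to 1.18. Lysozymes and antimicrobial peptides had 12 of 29 higher (13 without the 4), with lys-7 under an unadjusted 0.05, and lys-3, the lower gene with the lowest unadjusted p, at -0.19. Detoxification genes had 17 of 27 higher (16 without the 4), none under an unadjusted 0.05, and gst-5 at -0.33.

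**Figure D4:**
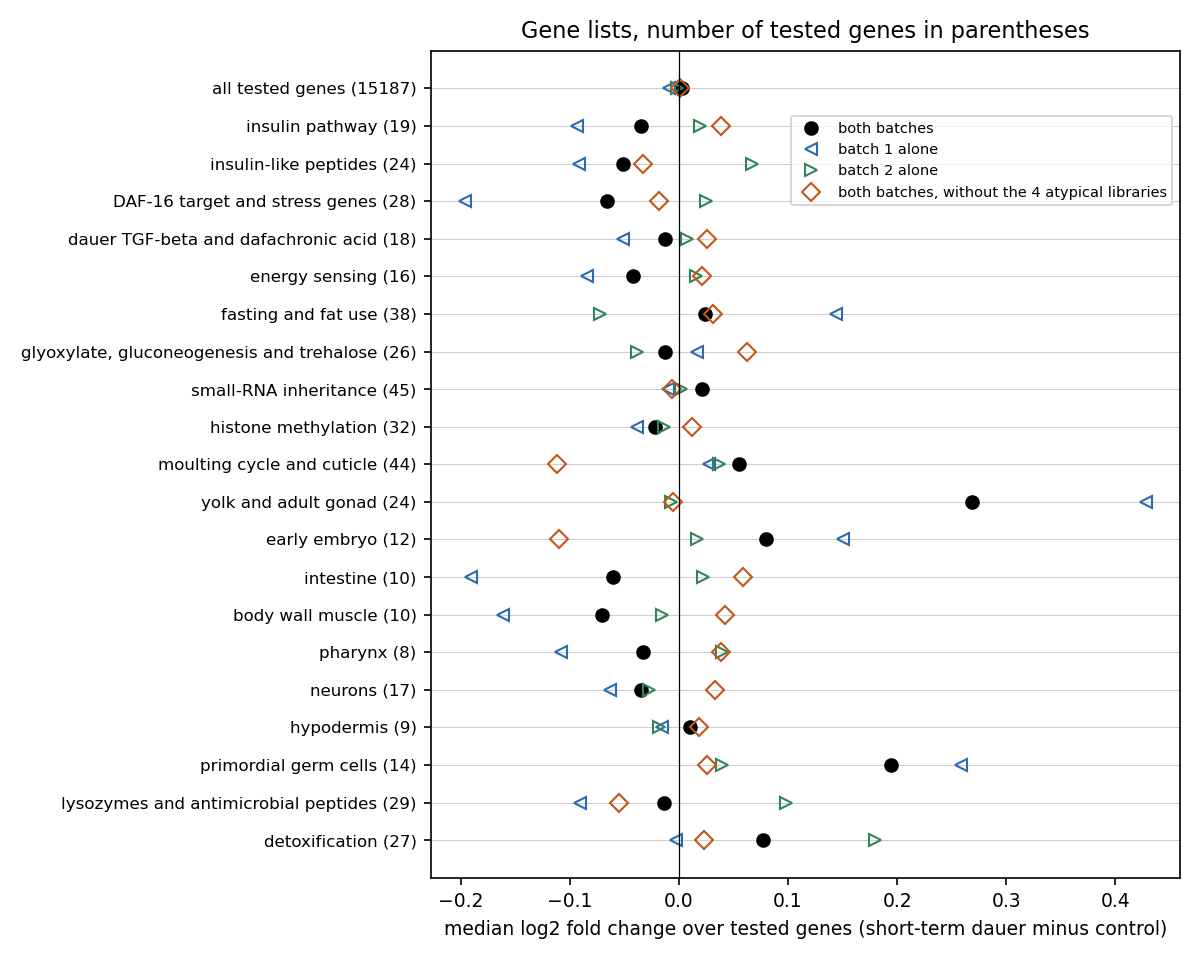
Median log2 fold change (short-term dauer minus control ancestry, horizontal axis) over the tested genes of each list, with all tested genes in the top line; black circles are both batches, blue and green triangles batch 1 and batch 2 alone, and orange diamonds both batches without the 4 atypical libraries. Gonad and germ cell lists lie at 0.27 and 0.19 with all libraries and at -0.0059 and 0.026 without the 4, and intestine, muscle, pharynx and neurons cross 0 in the other direction.

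The last question was whether libraries of 1 ancestry lay further from the rest of their batch than those of the other. The distance of a library was the root mean square log2 difference from the median of the other starved libraries in its batch. This measure does not separate spread within an ancestry from an offset between ancestries. Each ancestry had 1 atypical library in each batch, and the test below was not run without them. The distances were 0.858 for short-term dauer LC14, 0.727 for control LC6, 0.695 for control 14 and 0.633 for short-term dauer 14, and 0.255 to 0.449 for the other 17. In batch 1 the means were 0.399 ± 0.19 for control and 0.401 ± 0.257 for short-term dauer ancestry (SD, n = 5 each), and in batch 2 0.434 ± 0.121 (n = 7) and 0.438 ± 0.134 (n = 4). The difference averaged over batches was 0.00325 (two-sided exact permutation test within batches, 83160 arrangements, p = 0.968), well within the spread of either ancestry.

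**Figure D5:**
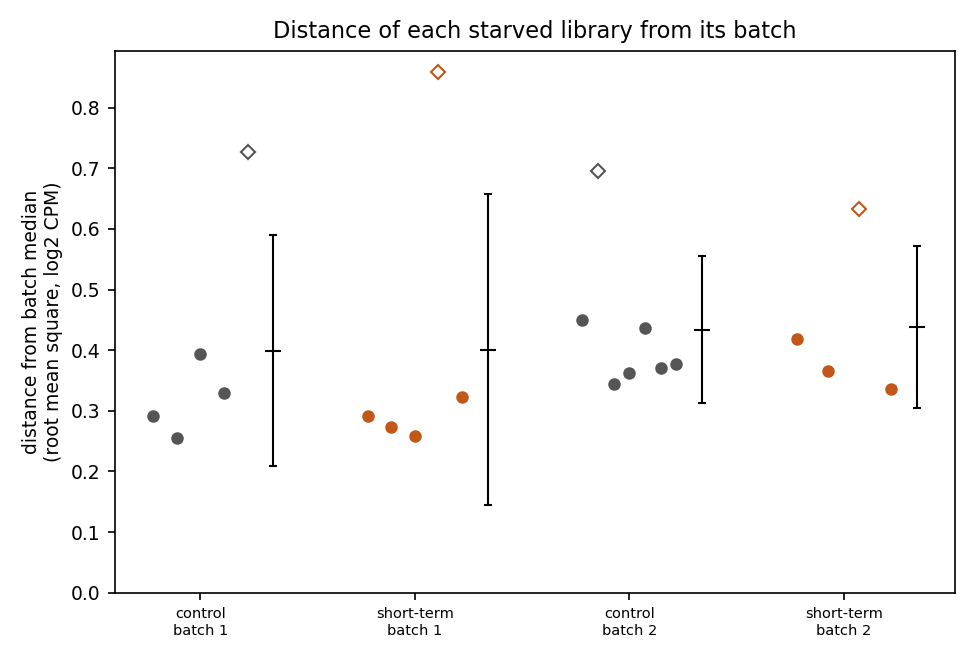
Distance of each starved library from the median of the others in its batch (root mean square of log2 CPM differences, vertical axis), by ancestry and batch; bars are mean and SD, and open diamonds the 4 atypical libraries. Each ancestry has 1 distant library in each batch, and the rest lie between 0.255 and 0.449.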

How the data were processed

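For each library the authors deposited a table of raw counts, whole numbers over 44968 features. Its 5 summary rows entered neither the library sizes nor the tests. Bowtie 1.1.2, HTSeq and edgeR are named in the submitters' processing notes, and the genome build and annotation are not given in the sources used here, so no coordinates are printed. The kit was non-directional and the RNA poly(A)-selected, per the labels' protocols, so reads of overlapping antisense genes cannot be told apart. Symbols matched 44443 features. Tests on the counts used edgeR 4.0.16 under R 4.3.3 (TMM scaling, filterByExpr by ancestry, batch plus ancestry, robust quasi-likelihood test, Benjamini-Hochberg adjustment). The method was run on simulated counts, which were drawn gene by gene and held no atypical libraries. That check therefore does not bear on the lack of called genes in these data. A standard error is the log2 fold change divided by the square root of the F statistic. CPM use TMM factors over all 39 libraries, and log2 CPM a prior count of 2. No 2 libraries of a group and batch agreed within sampling noise (47 pairs, chi-square per degree of freedom at least 5.71).

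Named genes were the 12 in each direction with the lowest unadjusted p among those of at least 10 CPM and the same sign in both batches and without the 4 atypical libraries, the lowest-p member of each list in each direction, and 19 fixed genes, of which 1 is not reported here. Members and lists were chosen with earlier results of these data known. In batch 1, 3 of 5 control libraries were on lane 4 and 4 of 5 short-term dauer libraries on lane 5, per the labels, and batch 2 was on lane 1. The alternatives were DESeq2 1.42.0, other size factors, no filter on low counts, no batch term, lane for batch, limma 3.58.1 voom with library weights, a replicate block and leaving out libraries.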

Additional observations from a re-analysis of the deposited data

Results flagged for a closer look

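Within each ancestry and batch (4 to 7 libraries), the highest or lowest library was tested for its gap to the rest in 176 sets of values of named genes, distances and shares of reads. Of these, 41 had a library far from the others, and 38 of the 41 belonged to the 4 atypical libraries. About 1 in 20 sets, or 8.8 of 176, would by chance if the sets were independent. They were not, since they share libraries. Many of the genes were also chosen from these data or with earlier results known. The excess is therefore no independent sign that these libraries differ. Values are in log2 CPM unless stated.

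Short-term dauer LC14 was apart for its distance from the batch (0.858) and its reads outside genes (12.62%). It was low for daf-2 (6.97), daf-7 (6.12), daf-12 (5.34), daf-16 (7.16), daf-28 (3.56), aak-2 (6.37), icl-1 (10.4), set-2 (5.38), islo-1 (4.21) and C25D7.10 (2.93), and high for vit-6 (3.83) and dpy-7 (3.40).

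Control LC6 was low for T22F3.11 (2.74), acs-2 (2.49), icl-1 (7.80), lipl-3 (3.06), C29F3.7 (2.14) and ptr-14 (2.67), and high for daf-2 (9.34), aak-2 (7.81), hsp-12.6 (5.77), sod-3 (4.74) and C13F10.5 (4.11). Control 14 was low for T22F3.11 (2.18), acs-2 (1.67) and icl-1 (7.20), and high for aak-2 (8.18), hsp-12.6 (5.06) and its distance from the batch (0.695). Short-term dauer 14 was low for T22F3.11 (2.57), acs-2 (2.70), icl-1 (7.36) and B0034.1 (3.73), and apart for daf-16 (8.43), hsp-12.6 (4.62) and mec-15 (4.29).

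The 3 others were control 2, low for gyg-2 (3.02), short-term dauer 16, high for prx-6 (4.14), and short-term dauer LC6, high for M162.5 (5.05). The joint log2 fold change of M162.5 was 0.51, and the lowest of its leave-one-out values was 0.22.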

How the results depend on the processing

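The count of genes under an adjusted p-value of 0.05 was 0 in every fit run (DESeq2, other size factors, no filter, no batch term, lane for batch, all 28 starved libraries, library weights, without the 4 atypical libraries, replicate block, and each of 21 libraries left out), as it was for each batch alone and for the ancestry by batch test. The count at an unadjusted 0.05, 176 (1.16%), moved by more than 1.5 times in several fits. It was 348 (2.29%) without the 4 atypical libraries, 297 (1.96%) with no batch term, 61 (0.402%) with lane for batch and 481 (3.17%) with library weights. With no filter it was 2113 of 36055 genes (5.86%, median log2 fold change 0.13 over those genes). Leaving out 1 library gave 100 (0.661%, control LC6) to 388 (2.43%, short-term dauer 14). It was 265 without short-term dauer LC6 (1.73%) and 265 without short-term dauer 10 (1.65%). The count that agreed in direction, 160, was 56 with lane for batch and 332 with library weights, and 88 (control LC6) to 296 (short-term dauer 14) with 1 library left out.

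Same-numbered libraries of the 2 ancestries deviated together in 4 of 7 pairs (correlations of -0.24 to 0.551). In 4 of 7 the correlation was best with their own number. Control 4_10 and short-term dauer 10 had a correlation of 0.412. These values do not settle whether the numbers mark shared replicates, and the main test did not pair the samples. The replicate block on the 14 libraries of the 7 pairs gave 805 unadjusted genes of 16492 (4.88%) and 500 agreeing genes. Without the block the counts were 410 of 16492 (2.49%) and 263 (a fit added after seeing the data). With control 4_10 also paired with short-term dauer 10 they were 592 of 15608 (3.79%) and 420. The cause of these shifts was not tested.

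The 24 lowest-p genes were chosen for their sign in both batches and without the 4 libraries, so their signs there are no sign of stability. Of 22 list medians, 3 held theirs in all: sperm (2 tested genes), dauer cuticle (1 tested gene, cut-6) and primordial germ cells (14 tested genes). Their sizes did not hold. Without the 4 atypical libraries the medians went from 0.66, 0.574 and 0.194 to 0.111, 0.00505 and 0.0259. The distance test gave p = 0.967 with a prior count of 5 and 0.972 on genes of at least 10 CPM.

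Depth was 9351453 counts or more. Intervals cover these 21 libraries alone. Lane and ancestry were only partly separable in batch 1, and scarce transcripts were not resolved.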

Other observations

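Control 13 of batch 2, which is not among the 4 atypical libraries, was intermediate in part of the metabolic genes. Its flavin monooxygenase fmo-2 had 4.01 CPM and its methionine synthase metr-1 106 CPM, against 27.2 to 85.8 and 260 to 656 CPM in the 17 libraries other than it and the 3 low ones, and its lipl-2, gst-20 and spp-8 had 68.0, 269 and 412 CPM. Its T22F3.11 (838 CPM) and acs-2 (1238 CPM) were within the range of the other starved larvae. These genes were chosen after their values were seen.

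Moulting and cuticle genes were high in a pair of batch 2 libraries, 1 of each ancestry: the median difference from the batch was 1.28 on the log2 scale in short-term dauer 10 and 0.885 in control 4_10, against -0.575 to 0.495 in the other 19. The summed levels of these genes, 1541 and 1447 CPM, lay within the range of 874 to 1790 CPM over the 21 libraries.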
